A study of Homo sapiens with 2 samples.

Results

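Early differentiating neurons were taken as cells in which the UMIs of STMN2, ELAVL3 and ONECUT2 together came to at least 4 per 10000 UMIs of the cell. This rule found 139 of 6650 cells, 54 of 2626 in the RUES2 library and 85 of 4024 in the 56CAG library. The cells came from neuruloids, colonies of human embryonic stem cells on 500 µm micropatterned discs that form several ectodermal tissues next to each other. RUES2 is a widely used human embryonic stem cell line. The second line, 56CAG, was derived from it and carries, per its label, 56 CAG repeats in HTT, where long repeats cause Huntington disease. Colonies of both lines had the TGF-beta receptor inhibitor SB431542 throughout, the BMP receptor inhibitor LDN 193189 at first and 3 ng/mL BMP4 afterwards, and were dissociated on day 7. Each line was grown on its own cover slip and gave 1 library from its own capture, so that line, cover slip and capture cannot be told apart. No test was possible between lines. Intervals are 95% intervals that cover counting error only.

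When a neural or sensory progenitor becomes a neuron, proneural transcription factors of the basic helix-loop-helix family are switched on briefly, the cell leaves the cycle, and the next factors, such as those of the NEUROD, NHLH and EBF families, start the neuronal programme. Microtubule proteins of the growing neurite, neurofilaments and RNA-binding proteins of the ELAVL family follow within the same step, and synaptic and transmitter genes come later. In the ectoderm such neurons can arise from the neural epithelium, which expresses PAX6, or from neural crest and placodes, where sensory neurons express POU4F1.

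All 3 genes of the rule encode early neuronal products. STMN2 is a tubulin-binding protein of growth cones, ELAVL3 an RNA-binding protein that stabilizes neuronal transcripts, and ONECUT2 a homeodomain transcription factor. The cells were chosen by the UMIs of these 3 genes, so their values are given as a description. In RUES2 the sum per 10000 UMIs ran from 4.78 to 74.0 over the 54 cells, with a median of 27.95. In 56CAG it ran from 4.02 to 63.6 over the 85 cells, with a median of 8.62. The ranges overlapped, but the middle of the 56CAG cells lay nearer to the threshold. The highest sum outside the class was 3.99 in RUES2 and 3.87 in 56CAG, and 9 RUES2 and 29 56CAG cells lay within 1 of the threshold on either side. Outside the class 87.8% of RUES2 and 87.2% of 56CAG cells had no UMI of any of the 3 genes. A UMI of STMN2 was found in 54 of 54 RUES2 and 83 of 85 56CAG cells of the class, of ELAVL3 in 45 and 66, and of ONECUT2 in 50 and 62. All 3 genes were seen together in 45 RUES2 cells (83.3%) and 57 56CAG cells (67.1%), against 0.0389% and 0.279% of the other cells.

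The name of the class was checked against the other neuron markers, with each cell thinned to 5400 UMIs. NEFM, the medium neurofilament chain, had a UMI in 64.8% of RUES2 and 48.2% of 56CAG class cells, against 0.894% and 1.14% of other cells and 0 of 31 and 0 of 109 surface ectoderm cells, which allows shares of up to 11.2% and 3.33% (Clopper-Pearson). Without thinning these shares were 79.6% and 62.4% in the class and 1.67% and 2.36% in other cells. DCX, a microtubule protein of migrating neurons, had a thinned share of 75.9% and 42.4%, against 0% and 1.83% in surface ectoderm. Surface ectoderm cells, taken as cells outside the class with KRT19, EPCAM and CDH1 of at least 4 per 10000, should lack these genes and so show the level that free RNA gives. Their median depth was 15677 UMIs in RUES2 and 10045 in 56CAG, against 14515 and 12401 in the class. CRABP1, which binds retinoic acid in the cytosol, was less restricted: 100.0% and 77.6% of class cells had it, but so did 51.9% and 52.3% of other cells and 41.9% and 29.4% of surface ectoderm cells. Its level set the class apart, as described further on. Over the class as a whole markers of neurons were thus present, but not in every cell. Without thinning, 11 RUES2 and 32 56CAG cells had no NEFM UMI. Some cells of both lines had STMN2 as the only gene of the rule and no NEFM. Examples are a RUES2 cell with a sum of 5.23 and a 56CAG cell with a sum of 6.75 and 53327 UMIs. TUBB3 and NEFL were not analysed here.

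Cells of the class were a little deeper than the rest, whose median was 13353.5 UMIs in RUES2 and 10502 in 56CAG. The median cell showed 4023.5 genes in RUES2 and 3484 in 56CAG, against 3664.5 and 2904 outside the class, and their summed UMIs were 1101682 and 1779703. Among the 5% of cells with most UMIs in their library were 7 of 54 RUES2 cells of the class (13.0%) and 17 of 85 56CAG cells (20%), against 4.86% and 4.70% of other cells. No doublet caller was used, and 11 barcodes occurred in both libraries, 0 of them in the class.

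The class made up 2.06% of RUES2 cells (Clopper-Pearson interval 1.55 to 2.67%) and 2.11% of 56CAG cells (1.69 to 2.61%). On the log2 scale the 56CAG share over the RUES2 share was 0.04, with an interval of -0.47 to 0.56. This equality depended on the threshold. Cells with a sum of 16 and over were 36 in RUES2, 1.37% of the library (0.962 to 1.89%), and 26 in 56CAG, 0.646% (0.422 to 0.945%), a log2 ratio of -1.09 with an interval of -1.87 to -0.32. They formed 66.7% of the RUES2 class and 30.6% of the 56CAG class. Between 4 and 8 lay 8 RUES2 cells and 42 56CAG cells, and between 8 and 16 there were 10 and 17.

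**Figure D1:**
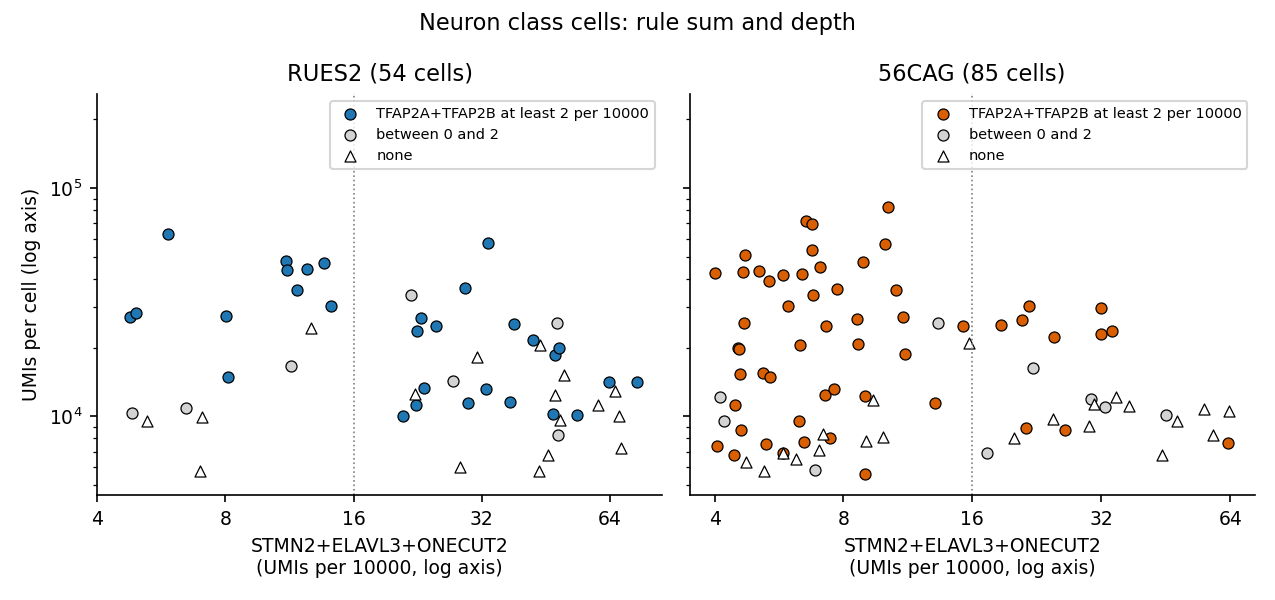
Every cell of the neuron class by the sum of STMN2, ELAVL3 and ONECUT2 (x axis, UMIs per 10000, log axis) and by its UMIs (y axis, log axis), for RUES2 (left) and 56CAG (right). Filled circles have TFAP2A and TFAP2B of at least 2 per 10000, grey circles less than that and triangles none; the dotted line marks a sum of 16, above which lie 36 RUES2 and 26 56CAG cells.

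Against all other cells of its library the class was set apart by a broad neuronal programme. Counts were summed over the cells of each group, expressed as CPM, the counts scaled to the same total for every group, and compared as log2 ratios; a gene was counted as higher or lower where the ratio was at least 2-fold in the same direction in both libraries. Of 2575 genes of at least 50 CPM, 73 were higher (2.83%) and 1 was lower (0.0388%); without the deepest 5% of cells these counts were 108 and 8. Of 8170 genes of at least 10 CPM, the set used for the gene lists below, 270 were higher (3.3%) and 10 were lower (0.122%). At these shares a short list would hold few or no such genes, so a count of 0 does not set a list apart. The median log2 ratio of all 8170 genes was -0.05 in RUES2 and 0.02 in 56CAG. Because the rule chose these cells for neuronal transcripts, the ratios describe the class and carry no test. In RUES2 alone 108 genes were at least 2-fold higher and in 56CAG 77, and the 73 shared ones were 67.6% and 94.8% of these. In 65 of the 73 the ratio was larger in RUES2.

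**Figure D2:**
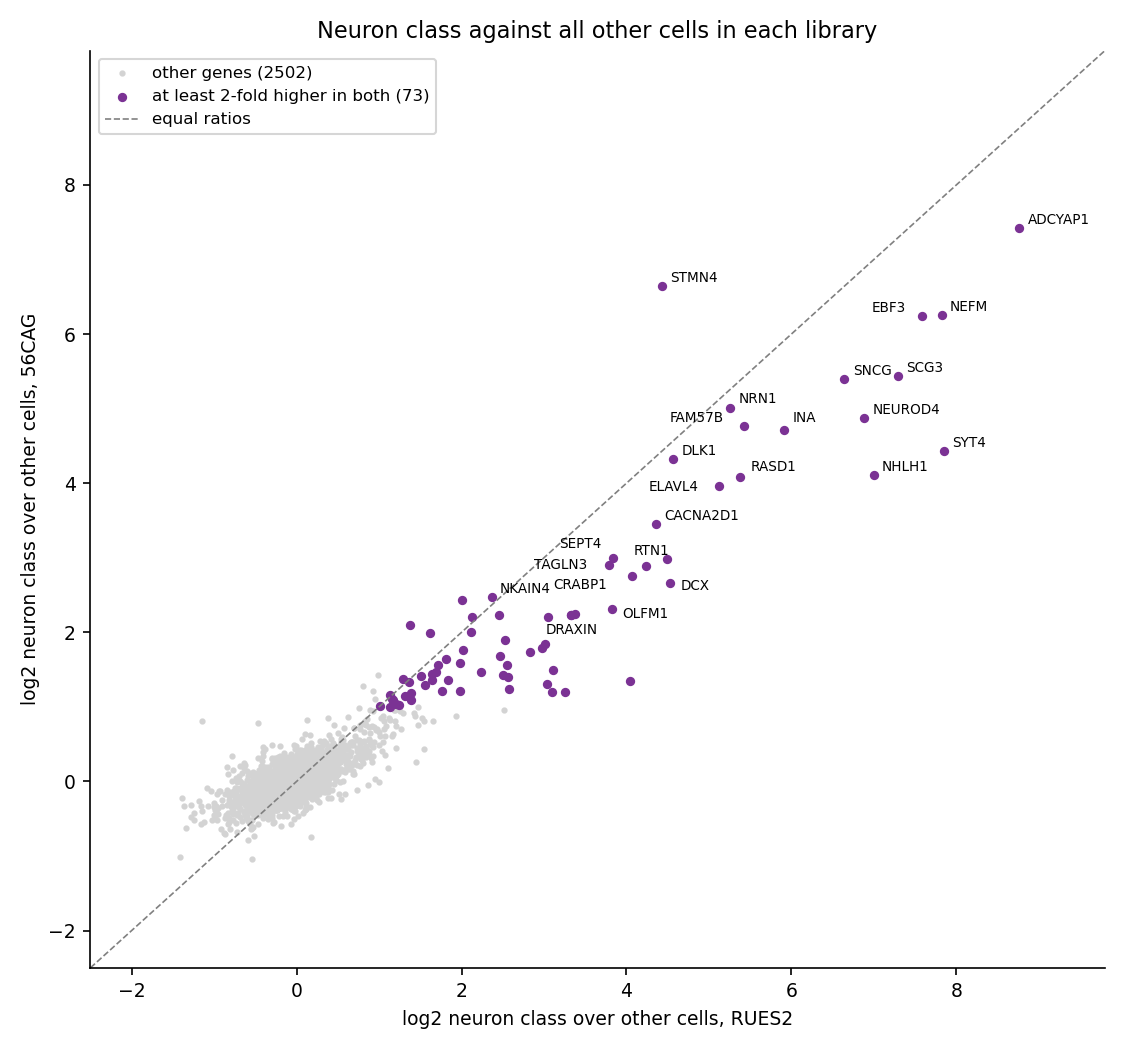
Log2 ratio of the neuron class over all other cells in RUES2 (x axis) and in 56CAG (y axis), 1 point per gene of at least 50 CPM without the 3 genes of the rule. The 73 genes at least 2-fold higher in both libraries are purple and 24 of the 25 named ones are labelled; the dashed line marks equal ratios, and 65 of the 73 lie below it.

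Most cytoskeletal genes of the axon were higher in the class. Of 25 measured members of the list 19 were at least 2-fold higher in the class in both libraries and 0 were lower, with a median log2 ratio of 1.76 in RUES2 and 1.43 in 56CAG. NEFM stood at 327 against 1.44 CPM in RUES2 and 259 against 3.398 CPM in 56CAG, log2 ratios of 7.82 and 6.25. Its class and other cells were far apart in both libraries, yet single cells differed widely: the lowest, median and highest cell had 0, 1.95 and 15.6 UMIs per 10000 in RUES2 and 0, 0.954 and 53.4 in 56CAG, and 11 and 32 cells had none. INA, alpha-internexin, another intermediate filament of axons, stood at 224 against 3.71 CPM in RUES2 and 71.9 against 2.74 CPM in 56CAG. STMN4, a stathmin, had a larger ratio in 56CAG, 6.64 (interval 6.11 to 7.21) against 4.43 (4.02 to 4.83) in RUES2, where the other cells held more of it (3.45 against 0.713 CPM). TAGLN3, a calponin-related protein of neurons, stood at 604 against 43.8 CPM in RUES2 and 285 against 38.2 CPM in 56CAG, and DCX at 251 against 10.9 CPM in RUES2 and 124 against 19.6 CPM in 56CAG.

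Other members differed less. TUBA1A, the tubulin of migrating neurons, was at 2850.2 against 1086 CPM in RUES2 and 1831 against 805 CPM in 56CAG, log2 ratios of 1.39 and 1.18, and MAP1B, a microtubule protein of axons, at 1141 against 352 CPM in RUES2 and 633 against 228 CPM in 56CAG. GAP43, a growth cone protein, had ratios of 1.36 and 1.33. Members short of the 2-fold limit in one library or both included MAP2 (0.95 and 1.11), TUBB2B (0.82 and 0.54) and STMN1 (0.92 and 0.27). SEPT4, a septin, was in no list and had ratios of 3.83 and 3.00.

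RNA-binding proteins that drive neuronal splicing and message stability formed a smaller group. Of 17 measured members 7 were at least 2-fold higher in both libraries, and the median log2 ratio was 1.25 in RUES2 and 0.72 in 56CAG. ELAVL4, a close relative of ELAVL3, stood at 155 against 4.45 CPM in RUES2 and 93.3 against 6.01 CPM in 56CAG, and ELAVL2 at 245 against 24.5 CPM in RUES2 and 99.5 against 21.2 CPM in 56CAG. SRRM4, a splicing factor of neuronal microexons, had log2 ratios of 2.97 and 1.79. PTBP1, the splicing repressor of non-neural cells, was nearly level at 72.6 against 76.95 CPM in RUES2 and 73.6 against 66.3 CPM in 56CAG. 

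Transcription factors of neurogenesis gave the highest median of all lists, 4.82 in RUES2 and 4.01 in 56CAG, and 17 of 22 measured members were at least 2-fold higher in both libraries. NHLH1, a basic helix-loop-helix factor of newborn neurons, stood at 894 against 7.002 CPM in RUES2 and 372 against 21.5 CPM in 56CAG. In RUES2 its lowest, median and highest cell had 0, 8.45 and 41.8 UMIs per 10000, and in 56CAG 0, 3.31 and 29.3, with 4 and 14 cells at 0. The libraries overlapped over most of this range, with the 56CAG cells lower at the median. NEUROD4, a factor that acts after the proneural genes, stood at 279 against 2.37 CPM in RUES2 and 112 against 3.81 CPM in 56CAG, and 10 RUES2 and 24 56CAG cells of the class had none. EBF3, a helix-loop-helix factor of migrating neurons, stood at 145 against 0.757 CPM in RUES2 and 53.9 against 0.713 CPM in 56CAG. EBF2 and ST18 were close to absent from the other cells, with 59.00 against 0.118 CPM in RUES2 and 28.1 against 0.282 CPM in 56CAG for EBF2 and 58.1 against 0.118 CPM in RUES2 and 32.6 against 0.0563 CPM in 56CAG for ST18.

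Proneural genes were unevenly present. NEUROG1, which starts neurogenesis in cranial sensory ganglia, stood at 251 against 15.3 CPM in RUES2 and 127 against 49.99 CPM in 56CAG, and NEUROG2 at 15.4 against 0.166 CPM in RUES2 and 10.1 against 0.15 CPM in 56CAG. The NEUROG1 ratio was 4.04 in RUES2 and 1.35 in 56CAG. Cells outside the class with NEUROG1 and NHLH1 of at least 2 per 10000, sensory precursors, held 312 and 309.8 CPM of NEUROG1, above the class in both libraries, though NEUROG1 was used to choose them; they numbered 65 of 2626 in RUES2 and 391 of 4024 in 56CAG. HES6, which promotes neurogenesis, had ratios of 2.51 and 0.96, and SOX11 of 1.94 and 0.87. SOX4, a related factor, had ratios of 0.69 and 0.49.

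Helix-loop-helix factors bind the E-box motif, and the sequence just upstream of the named higher genes was read for 2 of its forms that proneural and NEUROD factors prefer, CAGATG (or CATCTG on the other strand) and CAGCTG, which reads alike on both strands. RefSeq promoter windows for GRCh38.p14 matched 18 of the 25 genes, and 7 of these held a motif in the 250 bases before the start. The windows of NHLH1, NEUROD4 and INA are shown since they belong to 2 of the neurogenic factors described above and to a filament gene with both motifs. Capitals mark the motifs. They span chr1:160366821-160367070, chr12:55019724-55019973 and chr10:103276888-103277137, all on the plus strand.
NHLH1: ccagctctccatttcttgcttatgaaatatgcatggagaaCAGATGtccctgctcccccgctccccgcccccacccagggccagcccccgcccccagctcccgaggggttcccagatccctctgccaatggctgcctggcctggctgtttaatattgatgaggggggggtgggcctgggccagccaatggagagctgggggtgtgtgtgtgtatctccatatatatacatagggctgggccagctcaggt
NEUROD4: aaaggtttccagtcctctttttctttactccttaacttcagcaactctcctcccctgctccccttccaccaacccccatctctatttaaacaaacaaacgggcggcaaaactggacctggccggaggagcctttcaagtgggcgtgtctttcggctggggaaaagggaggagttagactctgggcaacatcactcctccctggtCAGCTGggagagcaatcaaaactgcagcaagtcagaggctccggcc
INA: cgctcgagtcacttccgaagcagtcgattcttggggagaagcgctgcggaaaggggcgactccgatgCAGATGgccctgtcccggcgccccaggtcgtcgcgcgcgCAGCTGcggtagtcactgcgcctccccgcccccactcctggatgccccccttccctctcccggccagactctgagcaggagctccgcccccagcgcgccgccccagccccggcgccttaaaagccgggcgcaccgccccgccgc
The CAGATG of NHLH1 began 210 bases before the start, the CAGCTG of NEUROD4 46 bases, and the motifs of INA 183 (CAGATG) and 144 bases (CAGCTG). Over all 73 higher genes, of which 55 had a window, CAGATG or CATCTG was in 6 (10.9%), against 6.76% of the 2012 windows of genes of at least 50 CPM and 12.2% of all 27305 windows. CAGCTG was in 12 of 55 (21.8%), against 9.94% and 13.8%. A match of letters shows neither binding nor use of the site.

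Genes of lateral inhibition and of cycle exit were partly higher. Of 11 measured genes of the Notch pathway, through which a newborn neuron holds its neighbours back from differentiating, 3 were at least 2-fold higher in both libraries and 0 were lower. These were the ligands DLL1 (1.53 and 1.26) and DLL3 (4.25 and 2.27) and the glycosyltransferase MFNG (4.07 and 2.81), which modifies the receptor. JAG1, a ligand of the other family, reached 2-fold in RUES2 alone (1.80 and 0.82). HES1, a target gene that represses proneural factors, stood at 31.8 against 46.3 CPM in RUES2 and 16.9 against 31.8 CPM in 56CAG. Of 14 measured genes of cycle exit, 3 were at least 2-fold higher. CDKN1C, an inhibitor of cyclin-dependent kinases, stood at 329 against 46.5 CPM in RUES2 and 77.5 against 23.3 CPM in 56CAG, GADD45G at 134 against 14.1 CPM in RUES2 and 52.3 against 22.7 CPM in 56CAG, and CDKN2D had log2 ratios of 2.06 and 1.76. CCND1, a cyclin of dividing cells, was lower in RUES2 at -1.04 (interval -1.42 to -0.68) and near level in 56CAG at -0.13 (-0.36 to 0.10).

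Identity genes of sensory and of central neurons were both present. Of 6 measured sensory genes, 4 were at least 2-fold higher in both libraries and 0 were lower. POU4F1, a homeodomain factor of sensory ganglia that also marks some midbrain neurons, stood at 539 against 65.6 CPM in RUES2 and 221 against 89.2 CPM in 56CAG. Its lowest, median and highest cell had 0, 4.78 and 14.3 UMIs per 10000 in RUES2 and 0, 1.32 and 15.4 in 56CAG, with 5 and 24 cells at 0. POU4F1 was also found outside the class: neural epithelium cells, taken as cells with a PAX6 UMI and none of SOX10 or TFAP2B, held 116 CPM in RUES2 and 241 CPM in 56CAG, and sensory precursors 65.2 and 96.6 CPM. Thus in 56CAG the neural epithelium held as much of it as the class. In thinned cells EYA2, a cofactor of placodal cells, had a UMI in 14.8% of the RUES2 and 16.5% of the 56CAG class. ISL1, which most sensory neurons express, had a UMI in 3.704% and 7.06%, against 3.23% and 3.67% of surface ectoderm, and so was near background in RUES2. In 56CAG the intervals overlapped, 2.63 to 14.7% in the class and 1.01 to 9.13% in surface ectoderm. Of the 26 56CAG cells with a sum of 16 and over, 0 had an ISL1 UMI when thinned.

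Of 13 measured genes of central neurons, 6 were at least 2-fold higher in both libraries and 0 were lower. They were the homeodomain factors BARHL1, LHX5, POU3F1 and POU3F2, PAX2 and the helix-loop-helix factor TAL2, which are known from midbrain, diencephalon, hindbrain and spinal cord. POU3F1 stood at 167 against 20.7 CPM in RUES2 and 74.7 against 20.8 CPM in 56CAG, TAL2 at 113 against 12.04 CPM in RUES2 and 32.03 against 5.61 CPM in 56CAG and BARHL1 at 184 against 56.3 CPM in RUES2 and 119.7 against 40.5 CPM in 56CAG. In thinned cells TAL2 had a UMI in 38.9% of RUES2 and 16.5% of 56CAG class cells, against 6.45% and 3.67% of surface ectoderm. BARHL1 gave 44.4% and 47.1%, against 22.6% and 17.4% of surface ectoderm. The median of the list was -0.23 in RUES2 and 0.47 in 56CAG, and ZFHX4 (-0.63 and -0.40) and NR2F1 (-0.91 and -0.33) were among the members below 0. Among 10 measured factors of position along the neural axis, 0 were at least 2-fold higher or lower. That is near the share over all 8170 genes, 3.3% higher and 0.122% lower. OTX2, a factor of forebrain and midbrain, stood at 202 against 188 CPM in RUES2 and 119 against 93.1 CPM in 56CAG, IRX2 at 60.8 against 46.3 CPM in RUES2 and 32.6 against 27.8 CPM in 56CAG and ZIC2 at 109 against 82.1 CPM in RUES2 and 41.02 against 38.7 CPM in 56CAG. None of the 12 transmitter genes found in at least 1 file reached 10 CPM in both libraries. Their summed level in cells with a sum of 16 and over was 36.4 CPM in RUES2 and 27.1 CPM in 56CAG. SLC17A6, SLC17A8 and CHAT were not analysed here.

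Synaptic and secretory genes were higher in many cases. Of 24 measured members 13 were at least 2-fold higher in both libraries, 0 were lower, and the median was 1.42 in RUES2 and 1.18 in 56CAG. SYT4, a synaptotagmin of dense-core vesicles, stood at 202 against 0.875 CPM in RUES2 and 96.1 against 4.45 CPM in 56CAG, and SCG3, a granin-binding protein of secretory granules, at 167 against 1.06 CPM in RUES2 and 82.04 against 1.896 CPM in 56CAG. SYP, the vesicle protein synaptophysin, had log2 ratios of 6.15 and 3.90, and SNAP25, which drives vesicle fusion, 2.49 and 2.31. RTN1, a reticulon of neuroendocrine cells, stood at 201 against 10.7 CPM in RUES2 and 97.2 against 13.1 CPM in 56CAG. ADCYAP1, the gene of the neuropeptide PACAP, had the largest ratio of the genes of at least 50 CPM when the smaller of both libraries was taken. It stood at 133 against 0.308 CPM in RUES2 and 57.9 against 0.338 CPM in 56CAG, and 13 of 54 RUES2 and 45 of 85 56CAG cells had none. SNCG, gamma-synuclein, which marks peripheral sensory neurons, stood at 309.5 against 3.099 CPM in RUES2 and 85.97 against 2.05 CPM in 56CAG. In single cells SNCG had 0, 2.22 and 13.7 UMIs per 10000 in RUES2 and 0, 0.255 and 10.2 in 56CAG as lowest, median and highest value. The share of RUES2 cells with a UMI depended on depth: it was 42.6% in thinned and 75.9% in unthinned cells for ADCYAP1, and 59.3% and 77.8% for SNCG.

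Of 9 measured channels and receptors 3 were at least 2-fold higher. CACNA2D1, a subunit of voltage-gated calcium channels, stood at 133 against 6.46 CPM in RUES2 and 62.4 against 5.69 CPM in 56CAG. CHRNA5, a nicotinic receptor subunit, had log2 ratios of 2.49 and 1.80. Of 28 measured genes of axon guidance and adhesion 10 were at least 2-fold higher and 0 were lower in both libraries. CNTN2, an adhesion protein of early commissural axons, stood at 87.1 against 0.994 CPM in RUES2 and 35.4 against 1.63 CPM in 56CAG, NCAM1 at 278 against 46.8 CPM in RUES2 and 128 against 54.4 CPM in 56CAG, and the netrin receptor DCC had log2 ratios of 1.80 and 1.65. CDH6, a cadherin of crest cells, and NRP2, a semaphorin receptor, had ratios below 0 (-1.27 and -0.47 for CDH6, -1.01 and -0.35 for NRP2). DRAXIN, a secreted guidance protein, stood at 128 against 12.3 CPM in RUES2 and 64.1 against 13.5 CPM in 56CAG, and NRN1, neuritin, at 512 against 13.4 CPM in RUES2 and 219 against 6.78 CPM in 56CAG.

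The retinoid-binding protein CRABP1 stood at 6128 against 365 CPM in RUES2 and 1856 against 276 CPM in 56CAG, log2 ratios of 4.07 and 2.75. In RUES2 its lowest, median and highest cell had 1.05, 66.9 and 220.2 UMIs per 10000 and none was at 0. In 56CAG these values were 0, 11.2 and 145, and 12 of 85 cells were at 0. The cells of both lines overlapped, with the 56CAG median below the RUES2 one. CRABP2, the second cytosolic binding protein of retinoic acid, was near level at 984 against 1287 CPM in RUES2 and 1237 against 1286 CPM in 56CAG. The other genes among the 25 named ones were FAM57B (5.43 and 4.77), DLK1 (4.57 and 4.33), RASD1 (5.38 and 4.08), NKAIN4 (2.37 and 2.47) and OLFM1 (3.82 and 2.31), which belong to none of the lists. Of the 73 higher genes, 40 were in a list and 33 in none.

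Little was lower in the class. MT1X, a metallothionein that belongs to a family of near-identical genes, so that its count is uncertain, was the one gene at least 2-fold lower in both libraries, at 22.7 against 60.7 CPM in RUES2 and 52.8 against 107 CPM in 56CAG. The next named genes fell short of 2-fold in a library or both. Among them were the crest genes SNAI2 (-0.87 and -0.70), EDNRB (-0.59 and -0.79) and MEF2C (-1.34 and -0.63), and the mitotic genes CDC20 (-0.83 and -0.57) and CCNB2 (-0.55 and -0.64). PTN, a growth factor of progenitors, stood at 286 against 538 CPM in RUES2 and 235 against 366 CPM in 56CAG. ISYNA1, EPB41L2, RRBP1, PRCP, SUCLG1, KIAA0101 and NUDT4 had log2 ratios between -1.16 (PRCP in RUES2) and -0.55 (NUDT4 in 56CAG). Without cells with SOX10 and TFAP2B of at least 2, a value changed sign for 3 of these genes: MEF2C was at 0.28 in RUES2, CDC20 at 0.13 in 56CAG and NUDT4 at 0.42 in 56CAG.

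REST, the repressor that keeps neuronal genes off in other cells, stood at 69.9 against 112 CPM in RUES2 and 75.9 against 92.9 CPM in 56CAG, and 0 of 12 measured genes of its complex and of the neuronal switch of BAF subunits reached 2-fold. Of 18 measured progenitor genes 0 were at least 2-fold higher or lower, with medians of -0.20 in RUES2 and -0.20 in 56CAG. Both counts of 0 are near the share over all 8170 genes, 3.3% higher and 0.122% lower. PAX6 itself stood at 407 against 199 CPM in RUES2 and 228 against 127 CPM in 56CAG, log2 ratios of 1.03 and 0.84, while VIM, the filament protein of progenitors, had log2 ratios of -0.46 and -0.39. Of 32 measured S phase genes 0 were higher and 1 was at least 2-fold lower, with medians of -0.71 in RUES2 and -0.31 in 56CAG. Of 52 measured genes of G2 and M phase 0 were past 2-fold in either direction and 45 were below 0 in both libraries, with medians of -0.38 in RUES2 and -0.31 in 56CAG. These medians depended on the cells compared: as a mean of both libraries, the S phase median was 0.085 against neural epithelium alone, and the progenitor median 0.34 against crest cells alone (SOX10 and TFAP2B of at least 2 and no PAX6).

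Lists of other cell types differed in their levels. Of 3 measured placode genes, 2 were at least 2-fold higher in both libraries (EYA2 and PAX2), with list medians of 3.31 in RUES2 and 1.58 in 56CAG. The 14 measured crest genes had medians of -0.44 in RUES2 and -0.45 in 56CAG with 0 past 2-fold, and their summed level was 1296 against 1783 CPM in RUES2 and 1581 against 2007 CPM in 56CAG. Against neural epithelium alone, which was chosen to lack SOX10 and TFAP2B, the mean of the medians was 2.61. TFAP2B, a factor of crest and surface ectoderm, stood at 261 against 248 CPM in RUES2 and 338 against 363 CPM in 56CAG. The summed surface ectoderm list was 163 against 239.9 CPM in RUES2 and 264 against 230.0 CPM in 56CAG, the mesenchyme and muscle list 396 against 629 CPM in RUES2 and 606 against 548 CPM in 56CAG, the melanocyte list 232 against 344 CPM in RUES2 and 253 against 293 CPM in 56CAG and the pluripotency list 192 against 241 CPM in RUES2 and 232 against 274 CPM in 56CAG. The median of the 7 measured mesenchyme and muscle genes was -1.28 in RUES2 and 0.02 in 56CAG. MITF, the regulator of melanocytes, was the melanocyte gene at least 2-fold lower, with -2.01 and -1.30. No gene of endothelium or blood reached 10 CPM in both libraries. TYRP1, GPNMB, DCT, TDGF1, MYOD1 and HBE1 had 0 counts in the class of both libraries. Of 11 stress genes 0 were past 2-fold, with a summed level of 1586 against 1792 CPM in RUES2 and 1473 against 1704 CPM in 56CAG. The counts of 0 for crest and stress genes are near the share over all 8170 genes, 3.3% higher and 0.122% lower.

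The class covered a range of sums of the 3 genes of the rule. Since those sums define the ranges, the levels along them are a description. Cells with a sum of 4 to 8, of 8 to 16 and of 16 and over held 36.3, 78.3 and 543 CPM of NEFM in RUES2 and 122, 139.5 and 762 CPM in 56CAG. NHLH1 was at 254, 527 and 1271 CPM in RUES2 and 202, 407 and 776 CPM in 56CAG, and CRABP1 at 2453, 2559 and 9093 CPM and 644, 1631 and 5306 CPM. Each of these 3 genes was highest in the top range in both lines. Summed over the list, the cytoskeleton was at 6135, 7370.2 and 15924 CPM in RUES2 and at 5182, 6786 and 14153 CPM in 56CAG, and cells just below the class, with a sum of 2 to 4, had 5126 and 4331 CPM. NEUROG1 followed another course, with 230.1, 87.3 and 347 CPM in RUES2 and 127, 139.5 and 111 CPM in 56CAG. The summed crest list was at 1932, 1563 and 998 CPM in RUES2 and 1675, 1562 and 1394 CPM in 56CAG. Cells with a sum of 0 held 1857 CPM of it in RUES2 and 2068 CPM in 56CAG. Depth differed along the range too: the median UMIs of the 3 ranges were 10601, 33013.5 and 13190 in RUES2 and 15047.5, 20965 and 10895.5 in 56CAG. Of the class cells among the deepest 5% of their library, 1, 4 and 2 RUES2 cells and 13, 4 and 0 56CAG cells lay in the 3 ranges. Their part in the levels of the lower ranges was not tested.

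**Figure D3:**
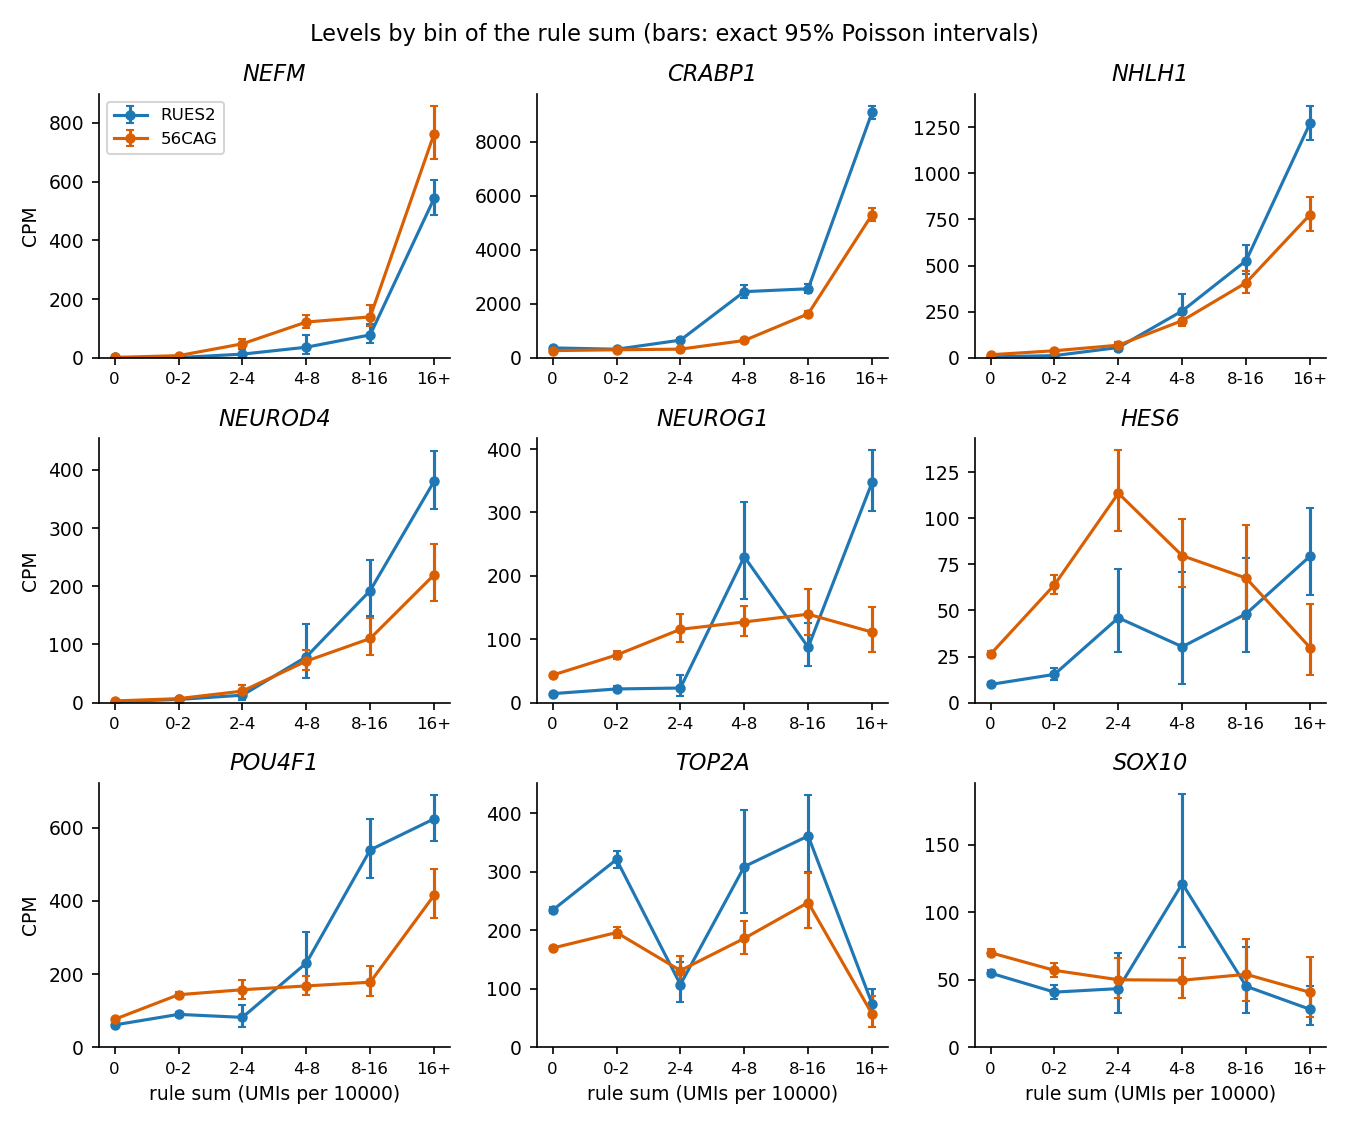
Levels of 9 genes (y axes, CPM, linear and starting at 0) in cells grouped by the sum of STMN2, ELAVL3 and ONECUT2 (x axis, ranges of UMIs per 10000), for RUES2 and 56CAG. Points are summed counts of all cells of a range, bars 95% exact Poisson intervals; NEFM went from 36.3 to 543 CPM in RUES2 and from 122 to 762 CPM in 56CAG between the lowest and the highest range of the class.

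Cells with a sum of 16 and over were also compared, after the data had been seen, with all cells of a lower sum, class cells among them. Of 2764 genes, 204 were at least 2-fold higher in both libraries (7.38%) and 36 were lower (1.3%). Of the 36, 11 were on the G2 and M phase list and 2 on the S phase list, and 18 were on no list. Ranked by the library with the smaller change, the first was UBE2C, a ubiquitin-conjugating enzyme of mitosis, at 86.03 against 321 CPM in RUES2 and 59.7 against 251 CPM in 56CAG. TOP2A, a topoisomerase of dividing cells, stood at 74.5 against 247 CPM in RUES2 and 56.97 against 174 CPM in 56CAG, and PCNA, the clamp of DNA replication, at 21.5 against 65.1 CPM in RUES2 and 21.7 against 64.02 CPM in 56CAG. The thinned share of cells with a TOP2A UMI was 19.4% in RUES2 and 11.5% in 56CAG, against 34.4% and 32.6% of cells outside the class. REST, at 51.3 against 112 CPM in RUES2 and 35.3 against 92.7 CPM in 56CAG, was among the 36, as were NR2F1, MEF2C, EDNRA, EDNRB and CDH6. The summed G2 and M phase list came to 2778 CPM in RUES2 and 2813 CPM in 56CAG in cells with a sum of 16 and over. Cells with a sum of 4 to 8 held 6608 and 4678 CPM, and cells with a sum of 8 to 16 held 7141 and 4399 CPM. Cells with a sum of 0 held 6014 CPM in RUES2 and 4995 CPM in 56CAG. Below a sum of 16, class cells were thus above the cells with a sum of 0 in RUES2 and slightly below them in 56CAG. Whether class cells below a sum of 16 had left the cycle was not tested.

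PAX6 and the TFAP2 factors were found in overlapping parts of the class. Over cells, PAX6 had 0, 2.77 and 30.97 UMIs per 10000 in RUES2 and 0, 1.703 and 14.5 in 56CAG as lowest, median and highest value, and the sum of TFAP2A and TFAP2B 0, 2.63 and 19.7 and 0, 3.75 and 13.9. A TFAP2 sum of at least 2 was found in 30 RUES2 and 55 56CAG cells, none at all in 17 and 21, and a value between in 7 and 9. Of the cells with no TFAP2, 16 of 17 in RUES2 and 19 of 21 in 56CAG had a PAX6 UMI. Of those with TFAP2, 10 RUES2 and 23 56CAG cells had no PAX6, and 20 and 32 had both. Cells with both were the deepest, with median UMIs of 27928 in RUES2 and 28482 in 56CAG and 7 and 14 of them in the deepest 5%. Cells with PAX6 and no TFAP2 had medians of 10566 and 8393 UMIs and 0 in the deepest 5%, and cells with TFAP2 and no PAX6 13624 and 11485, with 0 and 3. A UMI of either gene is more likely to be seen in a deeper cell, and the share of cells holding both was not tested for depth or doublets.

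**Figure D4:**
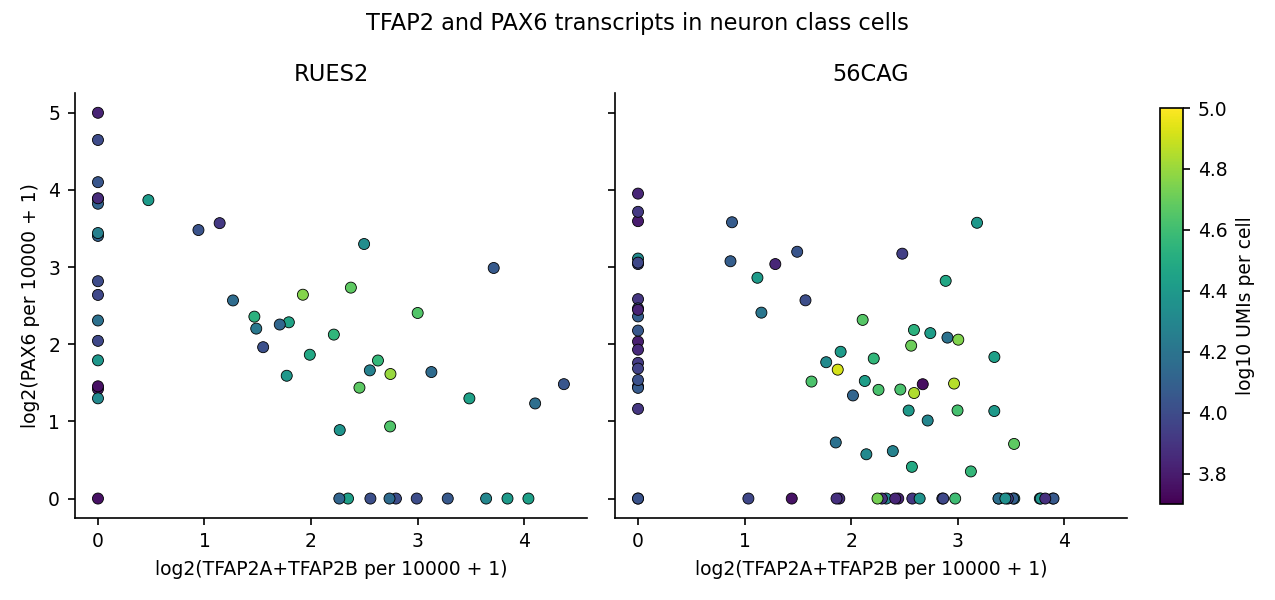
Every cell of the neuron class by TFAP2A plus TFAP2B (x axis) and PAX6 (y axis), both as log2 of UMIs per 10000 plus 1, for RUES2 (left) and 56CAG (right); the colour is the log10 of the UMIs of the cell. Cells at 0 on the x axis have no TFAP2 UMI (17 in RUES2, 21 in 56CAG) and none of these is in the deepest 5% of its library, whereas the lightest points, the deepest cells, are found among cells with TFAP2.

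Cells with TFAP2 of at least 2 and cells with none were compared in each library, a contrast in which TFAP2A and TFAP2B chose the cells. Of 2857 genes, 35 were at least 2-fold higher with TFAP2 in both libraries (1.23%) and 81 lower (2.84%). Crest genes were among the higher ones. EDNRA, the endothelin receptor of crest mesenchyme, stood at 91.9 against 5.05 CPM in RUES2 and 122 against 0 CPM in 56CAG. SOX10, the main regulator of crest and glia, stood at 56.1 against 5.05 CPM in RUES2 and 56.99 against 0 CPM in 56CAG. COL1A2, a collagen chain, stood at 156 against 25.3 CPM in RUES2 and 241 against 40.7 CPM in 56CAG, log2 ratios of 2.62 and 2.57. ERBB3, the neuregulin receptor of crest cells, stood at 66.4 against 0 CPM in RUES2 and 67.2 against 0 CPM in 56CAG; with a floor of 3 counts over the cells without TFAP2, its log2 ratio was at least 2.13 in RUES2 and at least 2.14 in 56CAG. CDH6, S100A10, HMGA2, S100A11 and RP4-792G4.2 were also among the 10 highest.

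Among the genes lower with TFAP2, GYG1, glycogenin, ranked first by the library with the smaller change, at 24.2 against 152 CPM in RUES2 and 13.6 against 71.2 CPM in 56CAG. MYT1, a zinc finger factor of newborn neurons, stood at 19.1 against 80.8 CPM in RUES2 and 13.6 against 71.2 CPM in 56CAG, and NRG1, a neuregulin, at 24.2 against 90.9 CPM in RUES2 and 17.6 against 91.5 CPM in 56CAG. EPHA4, an axon guidance receptor, stood at 24.2 against 90.9 CPM in RUES2 and 27.1 against 91.5 CPM in 56CAG. GPRIN3, SULF2, AKAP12, CDH9, NOVA1-AS1 and RP11-849I19.1 were the others. NOVA1-AS1 is named as antisense to NOVA1, and whether the counting used strand is not given in the sources used here, so its count is uncertain. Since cells with TFAP2 were deeper and, in 56CAG, nearer the threshold (median sum 7.07 against 19.98), the contrast was repeated, after the data had been seen, in cells with a sum of 16 and over and without the deepest 5%. That left 17 cells with and 13 without TFAP2 in RUES2 and 10 and 11 in 56CAG. All 20 named genes, which were chosen in this contrast on cells that include these, kept their sign, and for 16 the interval lay off 0 in both libraries. For 4 it reached across 0 in at least 1 library: SOX10 in RUES2, SULF2 in 56CAG, and NOVA1-AS1 and CDH9 in both. NOVA1-AS1 went from -1.88 and -1.91 to -1.21 and -0.35 in RUES2 and 56CAG and CDH9 from -1.86 and -3.64 to -1.24 and -0.35, where the last value is set by the floor of 3 counts. Among those with both intervals off 0, COL1A2 was at 3.73 and 2.97, GYG1 at -2.79 and -2.94 and MYT1 at -1.82 and -1.94. The 56CAG value of GYG1 is also set by the floor of 3 counts.

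Between the lines, the class of 56CAG was compared with that of RUES2 by summed counts. Of 2960 genes of at least 50 CPM, 12 were at least 2-fold higher in 56CAG (0.405%) and 129 lower (4.36%), around a median log2 ratio of -0.11; without the deepest 5% of cells these counts were 26 and 118. Some of these differences were shared by the other cells. KHDRBS3, an RNA-binding splicing factor, had 139 CPM in RUES2 and 2.81 CPM in 56CAG, a log2 ratio of -5.63 (-7.27 to -4.37), against -3.37 in the other cells. FHL1 and CD81 had log2 ratios of -2.13 and -2.03 in the class and -1.81 and -2.27 in the other cells. These 3 genes were thus lower in 56CAG inside and outside the class. SSTR2, a somatostatin receptor, went the other way outside: it had 108 CPM in RUES2 and 28.1 CPM in 56CAG in the class, a log2 ratio of -1.94 (-2.45 to -1.45), against 1.09 in the other cells.

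The genes higher in the class than outside it were mostly lower in 56CAG. Of these 73 genes, 71 were below 0, with a median log2 ratio of -0.87, and 58 had an interval below 0, beside 62.3% and 26.4% of all 2960 genes; in the other cells their median was -0.17, and 29 of them were among the 129. CDKN1C had 329 CPM in RUES2 and 77.5 CPM in 56CAG, a log2 ratio of -2.09 against -0.999 in the other cells. NHLH1 had -1.27 (-1.41 to -1.12), POU4F1 -1.28 (-1.47 to -1.10) and CRABP1 -1.72 (-1.78 to -1.66). Cells outside the class went the other way for NHLH1, whose 56CAG level there, 21.5 CPM, was above the RUES2 level of 7.002 CPM. By the levels given further above, POU4F1 was also higher in 56CAG outside the class. CRABP1 was lower in 56CAG there too, with 276 CPM beside a RUES2 level of 365 CPM. Since 56CAG had more cells near the threshold, the comparison was repeated, after the data had been seen, in cells with a sum of 16 and over, 36 in RUES2 and 26 in 56CAG. The lines were still not matched for the genes of the rule, which came to 3832 CPM in RUES2 and 3155 CPM in 56CAG in these cells. There 57 of 3141 genes were higher (1.81%) and 128 lower (4.08%), and of the 73 genes 51 were below 0, with a median of -0.30; 31 intervals lay below 0 and 7 above. Over all 3141 genes, 55.3% were below 0, 10.4% had an interval below 0 and 8.09% one above.

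For NEFM, STMN4 and DLK1 the interval lay above 0 in the cells with a sum of 16 and over but not in the whole class. NEFM had a log2 ratio of -0.34 (-0.54 to -0.13) in the whole class and 0.49 (0.26 to 0.72) in cells with a sum of 16 and over, at 543 and 762 CPM in RUES2 and 56CAG. STMN4 went from -0.06 (-0.47 to 0.36) to 1.14 (0.67 to 1.63) and DLK1, an imprinted Notch-like protein, from -1.07 to 0.37 (0.15 to 0.58). Others kept the direction with a smaller size. CRABP1 was at -0.78 (-0.85 to -0.70), NHLH1 at -0.71 (-0.91 to -0.51) and CDKN1C at -1.69 (-2.13 to -1.27). With 1 library a line, whether these sizes exceed the spread between captures was not tested.

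**Figure D5:**
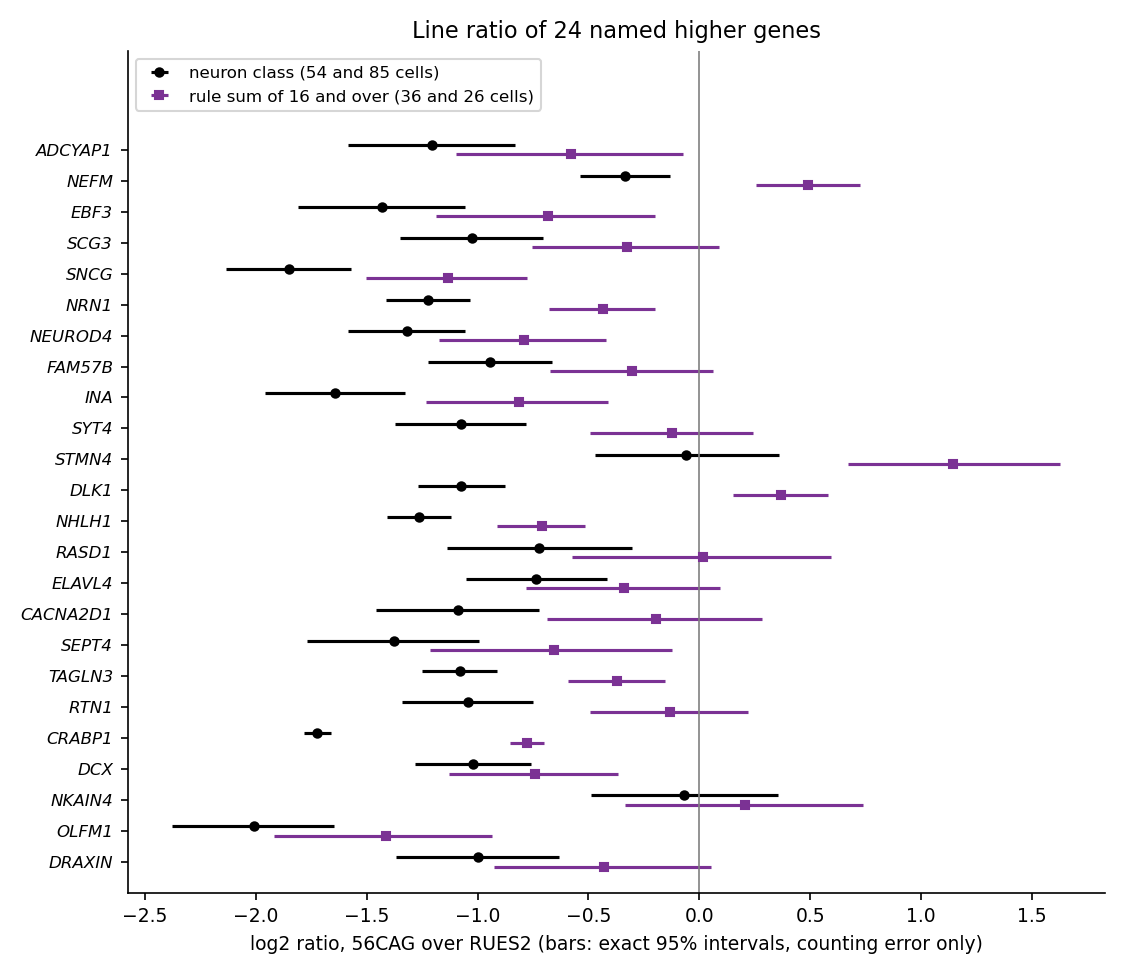
Log2 ratio of 56CAG over RUES2 (x axis) for 24 of the 25 named higher genes (y axis), in the whole neuron class (black circles, 54 and 85 cells) and in cells with a sum of 16 and over (purple squares, 36 and 26 cells); bars are exact 95% intervals for counting error. The black circles all lie below 0, and for NEFM, STMN4 and DLK1 the purple interval lies above 0.

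Other genes were higher in the 56CAG class. S100A11 and S100A10 are proteins of the S100 family, common in epithelia and crest. S100A11 had 59.9 CPM in RUES2 and 202 CPM in 56CAG, and S100A10 had 91.7 CPM in RUES2 and 236 CPM in 56CAG. LMO4, a transcriptional cofactor, had 129 CPM in RUES2 and 257 CPM in 56CAG, and APOE, an apolipoprotein, 124 CPM in RUES2 and 243 CPM in 56CAG, with log2 ratios of 0.998 and 0.965, so that both missed the 2-fold limit and are not among the 12. In cells with a sum of 16 and over S100A11 had 0.71 (-0.31 to 1.74), an interval that reaches across 0, and S100A10 1.32 (0.76 to 1.89). LMO4 had 0.74 (0.22 to 1.25) there and APOE 1.17 (0.66 to 1.70). In cells outside the class the log2 ratio of 56CAG over RUES2 was -0.20 for S100A11, 0.23 for S100A10, 0.54 for LMO4 and 0.003 for APOE. The summed crest list was at 1296 CPM in the RUES2 class and 1581 CPM in the 56CAG class, and its part in these differences was not tested.

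HTT itself stood at 27.2 against 21.7 CPM in RUES2 and 19.7 against 15.6 CPM in 56CAG, and its log2 ratio of 56CAG over RUES2 in the class was -0.47 (-1.22 to 0.28), against -0.48 in the other cells. A 3' count does not read the CAG repeat in the first exon and so does not check the label of the line. Of 7 measured genes of HTT and its partners in transport and endocytosis, 1 was at least 2-fold higher in the class in both libraries and 0 were lower. This was KLC1, the light chain of the kinesin motor, at 108 against 43.5 CPM in RUES2 and 77.5 against 34.9 CPM in 56CAG. DYNC1H1, the dynein heavy chain, had log2 ratios of 0.53 and 0.27.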

How the data were processed

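The deposited data were 10x Genomics single-cell UMI counts, 1 matrix of genes by cells for each of 2 libraries. Per the submitters' processing notes the authors used Cell Ranger 2.0.2 and R 3.5.1 with Seurat 2.3.4 and the hg19 build; which step used which tool is not given in the sources used here. The files list only genes found in at least 3 cells of their library. In both files were 19009 genes, and a gene outside them was not used in the counts of higher and lower genes. List sums in cells grouped by the sum of the rule include genes found in 1 file only. The members and the gene lists were chosen with earlier results of these data known.

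UMIs of STMN2, ELAVL3 and ONECUT2 were divided by the total of the cell and multiplied by 10000. Counts of a group's cells were summed and expressed as CPM of the summed total, with exact Poisson intervals and exact conditional intervals for log2 ratios, at the 95% level. A count of 0 was set to a floor of 3 counts for a ratio. Genes needed 50 CPM in both libraries in at least 1 of the groups compared (10 CPM for lists; between lines, 50 CPM in either line), and the 3 genes of the rule were left out. The 25 named higher and 15 named lower genes were those with the largest ratio in the library with the smaller one; the 10 genes named in each direction by line needed 100 CPM. To compare shares of cells with a UMI, every cell was thinned to 5400 UMIs; 0 cells were shallower. Cells were used as deposited, with no doublet removal; 0 cells had under 500 genes. Library totals were 43373134 UMIs in RUES2 and 55051472 in 56CAG. Scripts (Python 3.11.15, numpy 2.4.6, pandas 2.3.3, scipy 1.17.1, matplotlib 3.10.9) were tested on simulated data. Alternatives varied the threshold, the genes of the rule, depth, the reference cells, weighting, scaling and the filter on low values. Promoter sequences are those of RefSeq for GRCh38.p14, a build other than that of the files, and were joined by symbol. Some genes that the naming rule or the lists hold are not reported here by name, though they are in the counts.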

Additional observations from a re-analysis of the deposited data

Results flagged for a closer look

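For 3 genes the class differed from the other cells in opposite directions in the 2 libraries, with both intervals clear of 0. PMEL, a melanosome protein, had a log2 ratio of -0.41 (-0.81 to -0.03) in RUES2 and 0.34 (0.11 to 0.56) in 56CAG, from 52.6 against 69.9 CPM in RUES2 and 95.5 against 75.7 CPM in 56CAG. S100A10 had -0.78 (-1.08 to -0.50) and 0.35 (0.20 to 0.49), and S100A11 -1.14 (-1.52 to -0.80) and 0.81 (0.65 to 0.96). In cells with a sum of 16 and over S100A11 was lower than in all cells of a lower sum in both libraries, with -2.15 in RUES2 and -1.28 in 56CAG. Over the 56CAG class its median cell had 0.236 and its highest 46.9 UMIs per 10000. The difference between the lines itself was not tested, and each line has 1 library. Beside them, the summed surface ectoderm list was 163 against 239.9 CPM in RUES2 and 264 against 230.0 CPM in 56CAG, and 13.0% of the RUES2 class and 20% of the 56CAG class were among the 5% of cells with most UMIs; their part in these values was not tested.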

How the results depend on the processing

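No paired analysis was possible because each line has 1 library. For the same reason no library was left out, and depth limits genes near 10 CPM, which rest on few counts in the class. Where a value moved, the cause was not tested. The sum of at least 16 was chosen after seeing the data.

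The log2 ratio of shares, 0.04, became -0.71 and -1.09 at sums of at least 8 and 16 and -1.13 with STMN2 left out of the rule. The 73 higher genes became 42, 125 and 204 at sums of at least 2, 8 and 16, 120 without STMN2, 114 without cells with SOX10 and TFAP2B of at least 2, 115 against crest cells (SOX10 and TFAP2B of at least 2, no PAX6), 270 at 10 CPM and 4577 with no filter. The 1 lower gene became 0, 8 and 36 at those sums, 6 without STMN2, 2 without ONECUT2, 8 without the deepest 5% of cells, 10 without SOX10 and TFAP2B cells, 6 with cells weighted alike, 64 against neural epithelium, 9 against crest, 10 at 10 CPM and 95 with no filter. The 12 genes higher in 56CAG became 7, 22 and 57 at those sums, 24 in thinned cells, 25 without STMN2, 24 without ONECUT2, 26 without the deepest cells, 157 without SOX10 and TFAP2B cells, 21 with cells weighted alike, 21 after median centring, 209 at 10 CPM and 777 with no filter; the 129 lower became 247 without SOX10 and TFAP2B cells, 646 at 10 CPM and 3014 with no filter.

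List medians are means of both libraries. The cytoskeleton, 1.59, was 1.28, 2.03 and 2.28 at those sums, 1.99 without STMN2, 1.89 without the deepest cells, 1.94 without SOX10 and TFAP2B cells and 2.19 against crest. Neurogenic factors, 4.41, were 3.73 at a sum of at least 2, and RNA-binding proteins, 0.99, were 1.44 at 16. Synaptic genes, 1.30, were 2.01 at 16, 1.70 without the deepest cells, 1.77 without SOX10 and TFAP2B cells, 1.54 against neural epithelium and 1.63 against crest. Progenitor genes, -0.20, were -0.11, -0.19 and -0.30 at those sums, -0.19 thinned, -0.21, -0.19 and -0.14 without STMN2, ELAVL3 and ONECUT2, -0.18 without the deepest cells, -0.34 without SOX10 and TFAP2B cells, -0.21 without the 10% of cells highest in PTPRS and CTNNB1, -0.22 weighted alike, -0.19 centred, -0.55 against neural epithelium and, with the sign reversed, 0.34 against crest. Crest genes, -0.45, were -0.43, -0.51 and -0.71 at those sums, -0.56 thinned, -0.40 and -0.56 without STMN2 and ONECUT2, -0.69 without the deepest cells, -0.56 without SOX10 and TFAP2B cells, -0.73 weighted alike, -0.43 centred, -0.77 against crest and, reversed, 2.61 against neural epithelium, which was chosen to lack SOX10 and TFAP2B. S phase genes, -0.51, were -1.01 at 16 and, reversed, 0.085 against neural epithelium. G2 and M phase genes, -0.34, were -0.47 and -1.17 at sums of at least 8 and 16, -0.45 thinned, -0.75, -0.42 and -0.41 without STMN2, ELAVL3 and ONECUT2, -0.85 without the deepest cells, -0.89 without SOX10 and TFAP2B cells, where the libraries were at -1.77 and -0.01, and -0.44 weighted alike.

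Of the named genes, 3 values reversed, all without SOX10 and TFAP2B cells: MEF2C in RUES2 to 0.28, CDC20 in 56CAG to 0.13 and NUDT4 in 56CAG to 0.42. Of the other values of named genes in class over other cells 734 stayed within their interval and 303 moved; for the line comparison these counts were 213 and 47, and for the TFAP2 comparison 31 and 11.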
